A study of Bos indicus x Bos taurus with 17 samples.

Results

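Genes of the mitochondrial carrier family SLC25 were described in RNA-seq counts of liver and skeletal muscle from bovine fetuses at about day 105 of gestation. The members were the lines of the deposited count tables whose gene symbol is SLC25A followed by a number, which gave 46 lines under 45 symbols among the 21048 genes listed per tissue. SLC25A37 takes 2 lines, with gene identifiers 523756 and 100124521. The fetuses were F1 crosses of Bos taurus indicus and Bos taurus taurus, labelled healthy. Control-AI fetuses were conceived by artificial insemination (Control-AI 2 and 4), and ART-Normal fetuses by assisted reproduction, with in vitro production of the embryo and a fetal weight in the range of the controls (ART-Normal 1, 2, 3 and 4). Each of the 6 fetuses gave a liver and a muscle library, 12 libraries in all, and each library came from a separate fetus within its tissue. Only 2 controls entered, so every statement on conception rests on them.

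Mitochondrial carriers sit in the inner membrane of the mitochondrion, which small molecules cannot cross unaided, and exchange nucleotides, phosphate, organic acids, amino acids and cofactors between the cytosol and the matrix. Most share a fold of repeated helix pairs and differ in the substrate they take. Liver leans on carriers that feed urea synthesis, gluconeogenesis and, in the fetus, heme synthesis in the red cell precursors it houses, while muscle leans on carriers that move ATP and phosphate. Some members lie elsewhere, such as SLC25A17 in peroxisomes and SLC25A46 in the outer membrane.

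Total counts ranged from 18454088 to 43339598 in liver and from 12433300 to 23578362 in muscle. Levels are given in CPM, counts scaled to a common library total, after TMM scaling of the 12 libraries together. The authors' counts cover whole gene spans, introns included, so a long gene can collect intronic reads. All 9 skeletal muscle markers were higher in muscle and all 8 hepatocyte markers were higher in liver. The erythroid markers, which mark red cell precursors, summed to 6418 to 25401 CPM in liver and 95.7 to 619.3 CPM in muscle. Control-AI 2 stood apart in both tissues: it scored 64.1 in liver and 64.7 in muscle on the leading principal component (47.2% and 51.6% of the variance of the respective tissue), with every other library at or below -4.62. In liver its hepatocyte markers summed to 337484 CPM, against 28996 to 55429 CPM in the other fetuses. AHSG, ALB, SERPINA1 and AFP carried this excess, at 149045, 74805, 58957 and 41292 CPM. FGB was slightly above the other livers, and HNF4A, TTR and APOA1 lay within their range. The erythroid sum of Control-AI 2 alone set the top of the liver range, with the other livers at 6418 to 7184 CPM. HBG carried this, at 20392 CPM against 2422.5 CPM or less in the other livers, while HBA was lowest in Control-AI 2. Markers of the other tissue were also higher in sum in its libraries. Its hepatocyte markers summed to 367.8 CPM in muscle, against 63.0 CPM or less in the other muscles, with HNF4A and APOA1 within their range. Its skeletal muscle markers summed to 33.5 CPM in liver, against 6.92 to 9.59 CPM in the other livers. The part of these marker differences in the values of Control-AI 2 given below was not tested.

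Liver and muscle were first compared over all 6 fetuses, with the conception group as a covariate. Of the 46 lines, 41 reached the minimum level of 5 CPM in every library of at least 1 group and were tested. By edgeR's quasi-likelihood test with Benjamini-Hochberg adjustment over 12923 genes, at a threshold of 0.05, 24 were higher in liver, 13 were higher in muscle and 4 passed in neither direction. Of all genes tested, 40.6% were higher in liver and 40.7% were higher in muscle. Most genes thus passed, and the counts by substrate group below are to be read beside these shares. The members' median log2 fold change, liver over muscle, was 0.74, against 0.0061 for all genes, and the median size was 1.23 against 0.91. In 36 of the 41 members no liver library overlapped any muscle library, and the same held for 64.6% of all genes tested. Summed over the family, liver held 3573 to 3957 CPM and muscle 1926 to 2087 CPM. SLC25A37 made up 29.2% to 33.1% of the liver sum and 3.499% to 5.34% of the muscle sum. Without it, liver held 2499 to 2722 CPM and muscle 1824 to 2000 CPM, still without overlap.

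**Figure D1:**
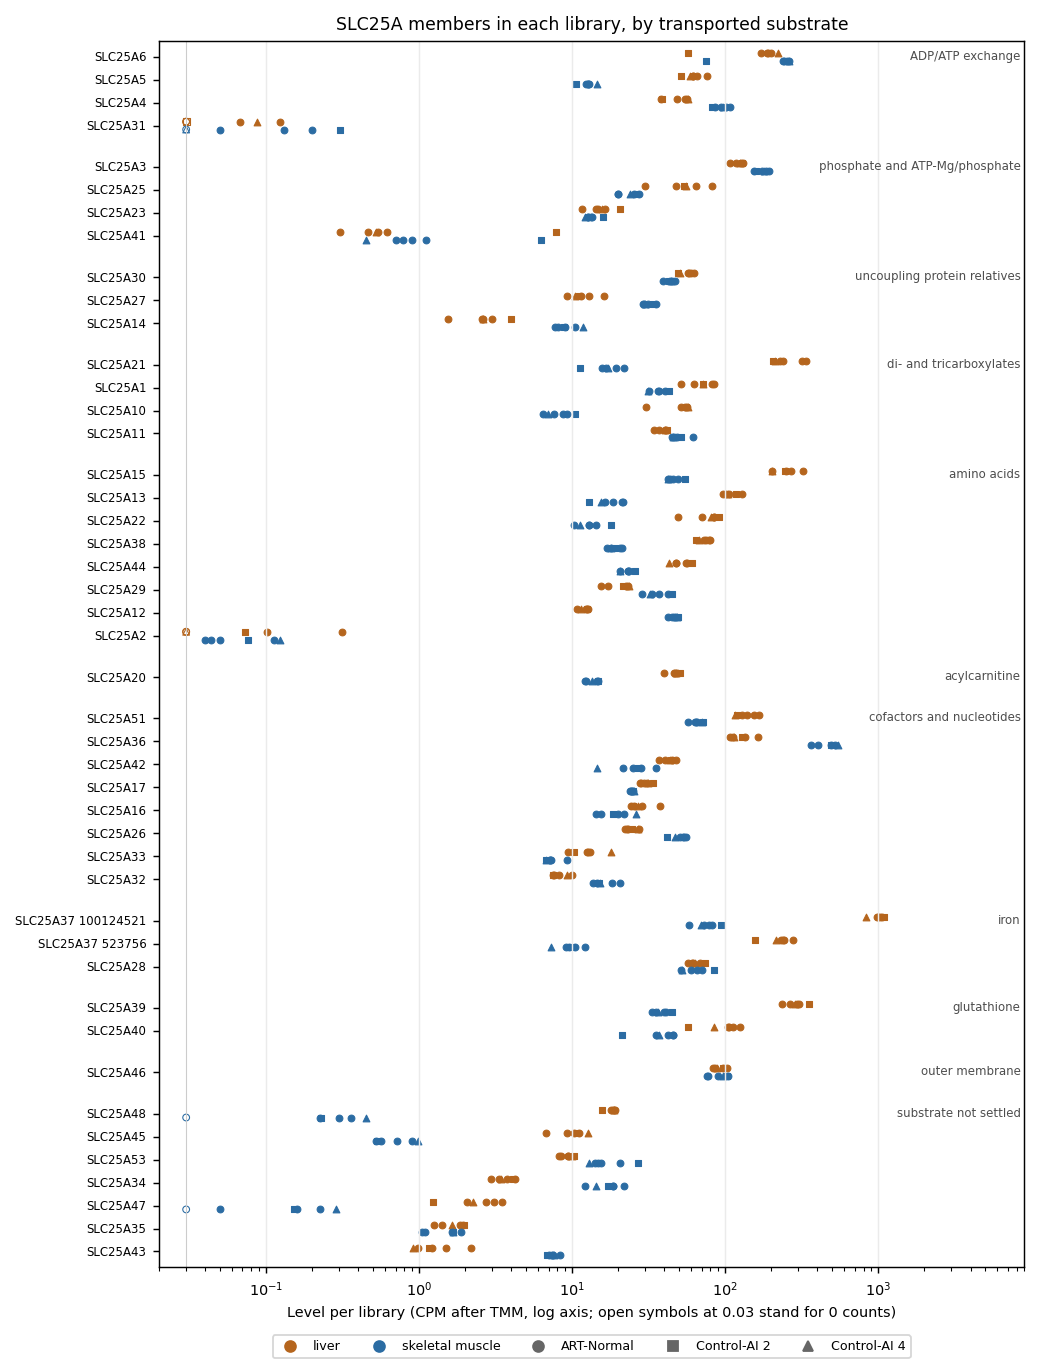
Level of 45 SLC25A lines in each of the 12 libraries, in CPM after TMM on a log axis, grouped by transported substrate; circles are ART-Normal fetuses, squares Control-AI 2, triangles Control-AI 4, and open symbols at the left edge are libraries with 0 counts. Liver and muscle points lie apart for 35 of the 40 tested members shown, and the Control-AI 2 squares lie apart from the other fetuses for SLC25A6 and SLC25A41 in both tissues.

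The ADP/ATP carriers export newly made ATP from the matrix. SLC25A4, on chromosome 27 (15489566 to 15493429, ARS-UCD1.2), is the form known from heart and skeletal muscle. Its lowest, median and highest levels were 38.0, 51.4 and 56.9 CPM in liver and 82.1, 94.8 and 107.7 CPM in muscle. Every muscle library was above every liver library, with a log2 fold change of -0.95 (SE 0.12, adjusted p = 4.51e-06 from edgeR). SLC25A5, the form known from dividing cells, on chromosome X (3852739 to 3855413), went the other way. It had 51.4, 61.5 and 75.8 CPM in liver and 10.6, 12.6 and 14.5 CPM in muscle, a log2 fold change of 2.30 (SE 0.10, adjusted p = 5.92e-11 from edgeR).

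SLC25A6, the ADP/ATP carrier on chromosome 26 (15191007 to 15195490), was much lower in Control-AI 2 than in the other fetuses in both tissues, and higher in muscle than in liver in each of the 6 fetuses. In liver it had 172.1, 189.6, 197.5 and 188.6 CPM across ART-Normal 1 to 4, while Control-AI 4 had 219.6 CPM and Control-AI 2 had 57.0 CPM. In muscle it had 243.3, 237.8, 261.1 and 254.8 CPM across ART-Normal 1 to 4, while Control-AI 4 had 261.8 CPM and Control-AI 2 had 75.0 CPM. Control-AI 2 was thus 3.33-fold below the median of the other fetuses in liver and 3.398-fold below it in muscle. The tissue difference of SLC25A6 did not pass over the 6 fetuses (log2 fold change -0.37, SE 0.29, adjusted p = 0.254 from edgeR). It passed without Control-AI 2 (-0.40, adjusted p = 0.000277) and with the fetus as a replicate block (-0.39, adjusted p = 0.000146). The ADP/ATP carriers are close in sequence, and how the authors assigned reads that match several of them is not given in the sources used here, so their levels are uncertain to that extent. SLC25A31, the form known from testis, had 0.30 CPM or less in every library.

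The phosphate carrier SLC25A3 supplies phosphate for ATP synthesis. It had 106.5, 125.8 and 131.1 CPM in liver and 154.6, 176.9 and 193.2 CPM in muscle, a log2 fold change of -0.51 (SE 0.08, adjusted p = 5.08e-05 from edgeR). The ATP-Mg/phosphate carriers adjust the adenine nucleotide content of the matrix. SLC25A25 had 30.0, 54.5 and 82.1 CPM in liver and 19.8, 24.6 and 27.2 CPM in muscle, a log2 fold change of 1.23 (SE 0.20, adjusted p = 4.51e-05), and its lowest liver library was ART-Normal 1. SLC25A23 was at 11.6 to 20.5 CPM in liver and 12.1 to 15.9 CPM in muscle and did not pass (adjusted p = 0.120 from edgeR).

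SLC25A41, a further ATP-Mg/phosphate carrier that begins 2102 bp after the end of SLC25A23 on chromosome 7, was below the minimum level for testing. Control-AI 4 and the ART-Normal fetuses had 0.30 to 0.61 CPM in liver and 0.45 to 1.11 CPM in muscle. In Control-AI 2 it had 7.88 CPM in liver and 6.21 CPM in muscle, 15.2-fold and 7.90-fold above the median of the others. SLC25A41 and SLC25A6 were the members expressed in both tissues for which Control-AI 2 lay at least 2-fold outside the range of the other fetuses in each tissue, one above and one below it. Neither overlaps another listed gene. The part of the difference of that library in these values was not tested.

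Carriers of dicarboxylates and tricarboxylates link the citric acid cycle to the cytosol, and 3 of the 4 were higher in liver. SLC25A21, the oxodicarboxylate carrier used in lysine and tryptophan breakdown, had 206, 232.2 and 336.8 CPM in liver and 11.3, 16.9 and 21.7 CPM in muscle. Its log2 fold change was 3.91 (SE 0.14, adjusted p = 8.79e-12 from edgeR), a 15.02-fold difference. Its listed span of 520688 bp on chromosome 21 is the longest of the family, so per kilobase of span it stood at only 0.49 CPM in liver. SLC25A10, the dicarboxylate carrier, had 30.3, 54.7 and 56.8 CPM in liver and 6.43, 8.11 and 10.4 CPM in muscle (log2 fold change 2.63, SE 0.17, adjusted p = 2.52e-09 from edgeR). SLC25A1, the citrate carrier that supplies carbon for fatty acid synthesis, differed less, at 51.3 to 84.2 CPM in liver and 31.3 to 42.7 CPM in muscle (0.95, SE 0.13). SLC25A11, the oxoglutarate-malate exchanger, was the exception, at 34.4 to 41.4 CPM in liver and 45.0 to 61.6 CPM in muscle (-0.34, SE 0.09, adjusted p = 0.00432 from edgeR).

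Among the 7 amino acid carriers tested, 5 were higher in liver and 2 in muscle. The aspartate-glutamate carriers of the malate-aspartate shuttle parted cleanly. SLC25A13 (citrin), on chromosome 4, had 95.9, 104.7 and 129.4 CPM in liver and 12.8, 17.5 and 21.5 CPM in muscle (log2 fold change 2.63, SE 0.12, adjusted p = 8.88e-11 from edgeR). SLC25A12 (aralar), on chromosome 2, had 10.8, 12.4 and 12.7 CPM in liver and 42.2, 46.8 and 48.7 CPM in muscle (-1.94, SE 0.08, adjusted p = 3.26e-11). So the ranges of both carriers lay apart between the tissues, in opposite directions. SLC25A15, which brings ornithine into the matrix for the urea cycle, had 201.7, 246.8 and 321 CPM in liver and 42.1, 44.4 and 54.2 CPM in muscle (2.43, SE 0.12, adjusted p = 2.24e-10 from edgeR). SLC25A22, a glutamate carrier, had 48.9 to 91.4 CPM in liver and 10.3 to 17.9 CPM in muscle (2.54, SE 0.16, adjusted p = 1.92e-09).

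SLC25A38, which imports glycine for heme synthesis, had 64.1 to 78.8 CPM in liver and 16.9 to 21.0 CPM in muscle (log2 fold change 1.94, SE 0.08). SLC25A44, a carrier of branched-chain amino acids, was also higher in liver (1.19, SE 0.10). SLC25A29, a carrier of basic amino acids, was higher in muscle, at 28.5 to 44.7 CPM against 15.4 to 23.4 CPM (-0.82, SE 0.14, adjusted p = 6.50e-05 from edgeR). Its neighbour on the opposite strand of chromosome 21, SLC25A47, 11937 bp away and known as a liver carrier, had 1.23 to 3.49 CPM in liver and 0 to 0.29 CPM in muscle. The ranges of SLC25A47 did not overlap, but it was below the minimum for testing. SLC25A2, a second ornithine carrier, had 0.31 CPM or less in every library. SLC25A18 was not analysed here.

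Iron carriers gave the highest single levels of the family. Mitoferrins bring iron into the matrix for heme and iron-sulfur clusters, and SLC25A37 is the form known from red cell precursors. Both lines of SLC25A37 lie on the plus strand of chromosome 8, the first from 70670484 to 70711535 (523756) and the second from 70711232 to 70718080 (100124521), so they share 304 bp. Line 100124521 had 830.6, 1008 and 1083 CPM in liver and 57.8, 75.1 and 93.0 CPM in muscle (log2 fold change 3.73, SE 0.13, adjusted p = 6.58e-12 from edgeR). Line 523756 had 156.2, 235.1 and 277.5 CPM in liver and 7.23, 9.73 and 12.03 CPM in muscle (4.54, SE 0.12, adjusted p = 5.01e-13). Both lines were far apart between the tissues. In liver the second line was 3.68 to 4.51 times the first in ART-Normal 1 to 4 and Control-AI 4, and 6.93 times in Control-AI 2, which was the lowest liver library for the first line and the highest for the second.

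SLC25A28, the mitoferrin known from most tissues, did not differ past the threshold. It had 56.9, 62.4 and 73.7 CPM in liver and 51.6, 62.3 and 84.8 CPM in muscle, with a log2 fold change of 0.0033 (SE 0.12, adjusted p = 0.980 from edgeR). Its sign changed under 6 of the alternatives. The carriers assigned to glutathione, SLC25A39 and SLC25A40, were both higher in liver. SLC25A39 had 234.9, 288.9 and 352.1 CPM in liver and 33.2, 37.9 and 44.9 CPM in muscle (2.91, SE 0.10, adjusted p = 6.12e-12). SLC25A40 had 57.1, 105.0 and 124.8 CPM in liver and 21.2, 39.7 and 45.7 CPM in muscle (1.36, SE 0.14, adjusted p = 4.06e-07).

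Most erythroid markers were higher in liver, as were SLC25A37, SLC25A38 and SLC25A39 and 40.6% of all genes tested. Of the 9 markers, 8 were higher in liver, and the exception was HBA (adjusted p = 0.0556). Their summed level did not overlap between the tissues, as given above. Each was detected in all 6 livers, at 3.25 CPM or more, while the erythroid regulators GATA1 and KLF1 had at most 0.15 and 0.57 CPM in muscle. The part of red cell precursors in the levels of SLC25A37, SLC25A38 and SLC25A39 was not tested. In bulk tissue a larger number of cells of a type and more RNA per cell cannot be told apart.

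SLC25A20, which exchanges carnitine for acylcarnitines ahead of fatty acid oxidation, had 39.9, 47.3 and 50.7 CPM in liver and 12.2, 14.02 and 14.7 CPM in muscle. Every liver library was above every muscle library, with a log2 fold change of 1.77 (SE 0.09, adjusted p = 2.09e-10 from edgeR).

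All 9 carriers of cofactors and nucleotides passed, 6 higher in liver and 3 in muscle, where 10507 of all 12923 genes tested passed. SLC25A36, a pyrimidine nucleotide carrier, had the highest level of the family in muscle before any correction for length, with 361.5, 488.9 and 545.1 CPM, against 106.9, 120.9 and 162.6 CPM in liver (log2 fold change -1.88, SE 0.13, adjusted p = 9.09e-09 from edgeR). SLC25A33, its relative, was higher in liver at 9.42 to 17.8 CPM against 6.70 to 9.27 CPM (0.77, SE 0.17). SLC25A51, which imports NAD, had 116.4 to 165.8 CPM in liver and 56.7 to 71.8 CPM in muscle (1.07, SE 0.10, adjusted p = 1.93e-07 from edgeR). SLC25A17 was higher in liver by a log2 fold change of 0.29 (SE 0.07) and SLC25A42, a coenzyme A carrier, by 0.79 (SE 0.16). SLC25A16, also linked to coenzyme A, lay between them at 0.53 (SE 0.16). SLC25A32, a folate and FAD carrier, was higher in muscle (-0.95, SE 0.14). So was SLC25A26, the S-adenosylmethionine carrier, at 41.7 to 55.2 CPM against 22.2 to 27.3 CPM (-1.03, SE 0.09, adjusted p = 1.33e-07). SLC25A26 shares 131 bp with LRIG1 on the opposite strand, and LRIG1 was itself at 199.8 to 309.0 CPM in muscle and 47.9 to 74.4 CPM in liver before TMM scaling. The part of LRIG1 reads in SLC25A26 was not tested.

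Among the relatives of the uncoupling proteins, SLC25A27 and SLC25A14 were higher in muscle and SLC25A30 was higher in liver. SLC25A14 differed by a log2 fold change of -1.79 (SE 0.19, adjusted p = 9.0e-07 from edgeR). It did not reach the minimum level throughout either liver group and was tested only through muscle. A higher level there was thus a condition for testing SLC25A14. SLC25A27 had 29.2 to 35.1 CPM in muscle and 9.26 to 16.1 CPM in liver (log2 fold change -1.41, SE 0.13, adjusted p = 1.33e-07 from edgeR). It shares 11903 bp with CYP39A1 on the opposite strand, which had 3.16 to 10.54 CPM in muscle and 3.63 to 5.07 CPM in liver before TMM scaling, below SLC25A27 in every library. SLC25A30 differed by 0.36 (SE 0.08). SLC25A46, which acts in fission and lipid exchange at the outer membrane, had 82.8 to 101.9 CPM in liver and 76.1 to 104.7 CPM in muscle and did not pass (0.02, SE 0.09, adjusted p = 0.878 from edgeR). Its sign changed under 5 of the alternatives.

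Among the members without a settled substrate, SLC25A48 held the liver end of the comparison and SLC25A43 the muscle end. SLC25A48, on chromosome 7, had 15.5, 18.7 and 19.1 CPM in liver and 0, 0.26 and 0.45 CPM in muscle, where no library had more than 11 counts. Its log2 fold change of 6.07 (SE 0.33, adjusted p = 5.28e-10 from edgeR) rests on those few muscle counts. SLC25A45 had 6.69, 10.46 and 12.6 CPM in liver and 0.53, 0.64 and 0.98 CPM in muscle (3.81, SE 0.22, adjusted p = 7.85e-10). At the other end, SLC25A43 had 0.91, 1.18 and 2.19 CPM in liver and 6.82, 7.40 and 8.35 CPM in muscle (-2.48, SE 0.21, adjusted p = 7.53e-08). SLC25A43 and SLC25A5 are neighbours on one strand of chromosome X, 10724 bp apart, and differed between the tissues in opposite directions. SLC25A34 had 2.93, 3.58 and 4.25 CPM in liver and 12.1, 17.7 and 21.9 CPM in muscle (-2.23, SE 0.17, adjusted p = 1.90e-08). SLC25A48, SLC25A45, SLC25A43 and SLC25A34 stayed below the minimum level for testing in every library of their lower tissue. They were tested only because they reached it in the other tissue. A higher level there was thus a condition for testing them, and their fold changes rest on low levels in the lower tissue. SLC25A53 was higher in muscle (-0.90, SE 0.17) and shares 2959 bp with ZCCHC18 on the opposite strand. ZCCHC18 had 6.998 to 12.8 CPM in muscle and 0.98 to 2.72 CPM in liver before TMM scaling. Over the 12 libraries SLC25A53 averaged 13.5 CPM and ZCCHC18 5.76 CPM on that scale. The part of ZCCHC18 reads in SLC25A53 was not tested. SLC25A35, which shares 28 bp with RANGRF, stayed at 1.05 to 1.95 CPM in both tissues and was not tested.

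**Figure D2:**
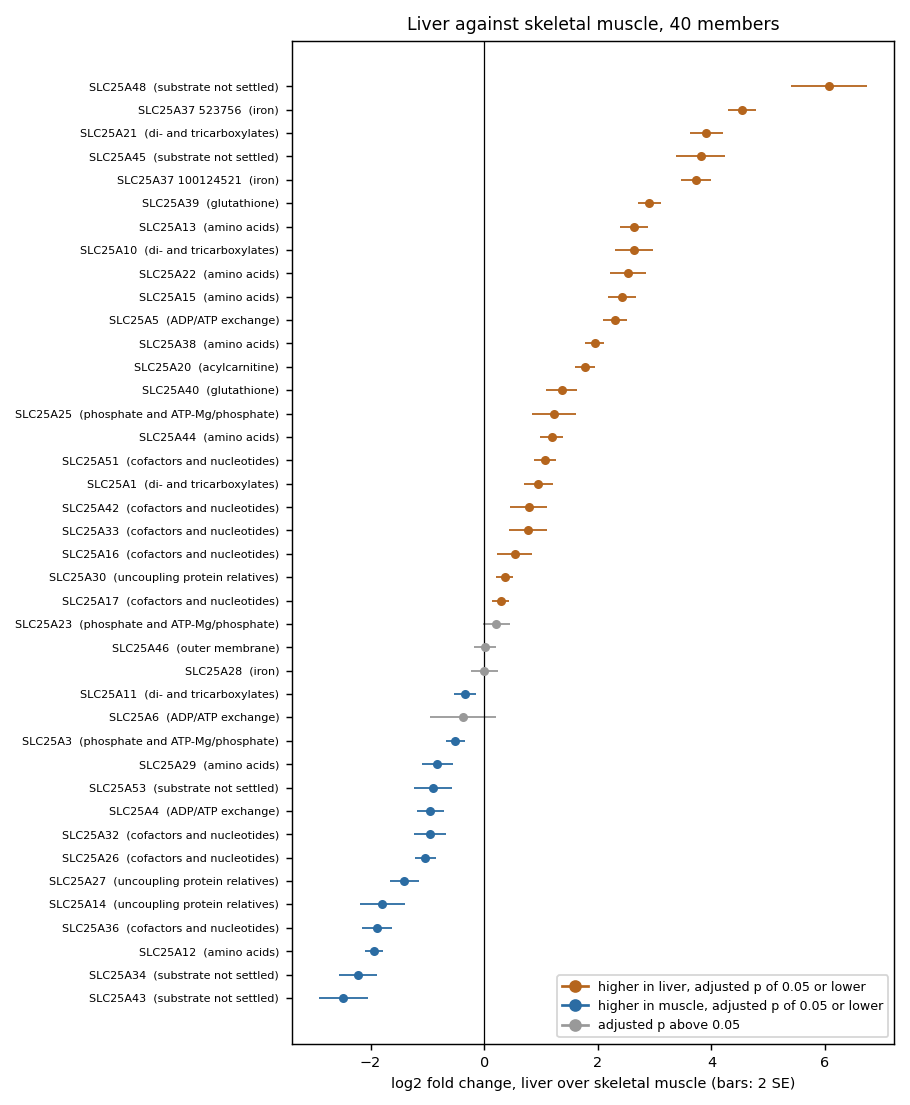
Log2 fold change of liver over skeletal muscle for 40 of the members tested, with bars of 2 SE on each side and the substrate group in brackets. The values run from -2.48 for SLC25A43 to 6.07 for SLC25A48, with 23 of those shown past the threshold on the liver side, 13 on the muscle side and 4 in grey past it on neither.

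These calls were repeated under other settings. When libraries were scaled to library size alone, the median of all genes moved to a log2 fold change of -0.13 and that of the members to 0.60, and 21 members were called higher in liver and 13 in muscle. Of the 37 calls, 28 were made under every alternative, and 0 changed sign under any of them. SLC25A45 and SLC25A48 were not tested where at least 10 counts were required in every library, and were called under all the other alternatives. The remaining 7, SLC25A3, SLC25A11, SLC25A16, SLC25A17, SLC25A30, SLC25A33 and SLC25A53, lost the call in the Control-AI fetuses alone, and SLC25A16, SLC25A17 and SLC25A30 also with library size alone.

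Levels were compared between genes per kilobase of listed gene span, since exon lengths were not analysed here. On this scale SLC25A37 line 100124521 led in liver with a mean of 145.2 CPM per kilobase, followed by SLC25A39 with 62.8, SLC25A6 with 38.1, SLC25A1 with 24.6 and SLC25A5 with 23.4. SLC25A1 and SLC25A5 overlapped between libraries, at 17.9 to 29.5 and 19.2 to 28.3 CPM per kilobase. In muscle SLC25A6 led with 49.6, followed by SLC25A3 with 27.7, SLC25A4 with 24.4, SLC25A11 with 17.6 and SLC25A36 with 12.96. SLC25A3 and SLC25A4 overlapped at 24.6 to 30.8 and 21.3 to 27.9. The leading muscle members thus carry ATP, phosphate and oxoglutarate, with SLC25A36 a nucleotide carrier. The scale counts introns as length, so compact genes stand higher on it than spread-out ones.

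The makeup of groups of closely related carriers was then compared between the tissues of each fetus by an exact paired permutation test over all sign flips, two-sided, with Benjamini-Hochberg adjustment over 4 shares. The smallest p that 6 fetuses allow is 0.03125, and each share reached it, with the same direction in 6 of 6 fetuses (adjusted p = 0.03125, exact permutation test). SLC25A13 made up 90.0% ± 0.83 (SD, n = 6) of the counts of SLC25A12 and SLC25A13 in liver and 27.5% ± 4.6 in muscle. SLC25A37 made up 95.0% ± 0.56 of the mitoferrin counts in liver and 57.2% ± 1.7 in muscle. These mitoferrin shares spanned 94.3% to 95.6% in liver and 54.8% to 59.7% in muscle, the least spread of the 4 groups in muscle.

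SLC25A25 made up 77.3% ± 4.6 of the counts of SLC25A23 and SLC25A25 in liver and 63.9% ± 3.3 in muscle. SLC25A24 was not analysed here. SLC25A4 made up 18.0% ± 4.4 of the counts of the ADP/ATP carriers SLC25A4, SLC25A5 and SLC25A6 in liver and 30.4% ± 9.3 in muscle. Control-AI 2 held the highest SLC25A4 share in both tissues, 26.2% in liver and 49.0% in muscle. The other fetuses lay at 13.3% to 17.9% and 24.9% to 30.1%. The total it is a share of, which includes SLC25A6, was low in Control-AI 2. With SLC25A31 included, these carriers summed to 146.8 CPM in its liver and 168.0 CPM in its muscle. The other fetuses had 285.8 to 335.6 and 341.3 to 372.4 CPM. Its higher share therefore does not stand for a higher SLC25A4 level. The difference between the tissues averaged 12.4 percentage points lower in liver, written as -12.4 ± 5.4 (SD, n = 6), and 62.5 ± 5.2, 37.8 ± 1.7 and 13.4 ± 2.8 percentage points higher for SLC25A13, SLC25A37 and SLC25A25.

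**Figure D3:**
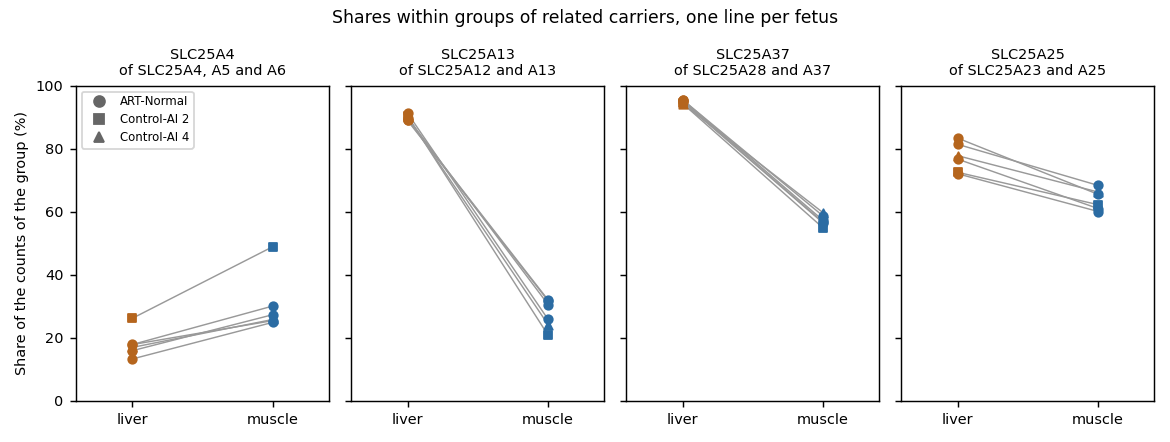
Share of the named carrier in the summed counts of its group, in percent, in the liver and muscle of each fetus, with 1 line per fetus; circles are ART-Normal, squares Control-AI 2 and triangles Control-AI 4. Every line falls from liver to muscle for SLC25A13, SLC25A37 and SLC25A25 and climbs for SLC25A4, where the Control-AI 2 line runs from 26.2% to 49.0%, above the others.

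Genes that work beside these carriers were counted from lists set for this purpose. Beside these counts, 40.6% of all genes tested were higher in liver and 40.7% in muscle. All 6 urea cycle enzymes were higher in liver, as was SLC25A15. Their log2 fold changes ran from 3.33 for ASL to 11.40 for CPS1, all above the 2.43 of SLC25A15, whose muscle level was 42.1 to 54.2 CPM while OTC, the enzyme that uses the imported ornithine, had 0.38 CPM or less there. All 9 heme synthesis enzymes were higher in liver, from 0.86 (SE 0.14) for ALAS1 to 7.51 (SE 0.32) for ALAS2, the erythroid form of the first enzyme. Of the malate-aspartate shuttle enzymes, 3 of 4 were higher in liver, with GOT2, the mitochondrial aspartate aminotransferase, at 1.62 (SE 0.09), and MDH1, the cytosolic malate dehydrogenase, was higher in muscle (-0.26, SE 0.07, adjusted p = 0.00383 from edgeR).

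Of the carnitine enzymes, 4 of 5 were higher in liver, as was SLC25A20. CPT1A, the liver form of the outer membrane palmitoyltransferase, differed by 1.73 (SE 0.11) and CPT1B, the muscle form, by -1.11 (SE 0.18). Carriers that are named outside the SLC25A symbols gave 3 tested genes of 5: UCP2 was higher in liver (3.83, SE 0.16), MTCH2 was higher in liver (0.82, SE 0.08) and MTCH1 did not pass (-0.14, SE 0.07, adjusted p = 0.0811 from edgeR). UCP1 and UCP3 had at most 0.30 and 1.14 CPM. Of 20 other transport proteins of the mitochondrial membranes, 11 were higher in liver, 6 in muscle and 3 in neither. The outer membrane protein TSPO (4.78, SE 0.12) and the heme-related transporter ABCB10 (3.19, SE 0.09) led on the liver side. MCU, the pore of the calcium uniporter, was among those higher in muscle (-1.48, SE 0.14).

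ART-Normal and Control-AI fetuses were compared within each tissue, with a positive log2 fold change for a higher level in ART-Normal. In muscle, 0 of 39 members passed by edgeR's quasi-likelihood test, against 0.00855% of 11695 genes (1 gene), and 2 members (1075 genes) were under 0.05 before adjustment. In liver, 0 of 38 members passed, against 0% of 11304 genes, and 3 members (948 genes) were under 0.05 before adjustment. The likelihood ratio test called 120 genes in muscle and 89 in liver, and DESeq2's Wald test 106 and 56, with 0 members among them in either tissue. The interaction of tissue and conception called 0 of 41 members and 0% of 12923 genes, with 2 members and 711 genes at an unadjusted p under 0.05; the likelihood ratio test called 98 genes and DESeq2 37, with 0 members among them. The median size of the members' log2 fold change was 0.12 in muscle and 0.18 in liver, against 0.14 and 0.17 for all genes tested.

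The 4 ART-Normal libraries did not overlap the 2 Control-AI libraries for 5 of 39 members in muscle and 9 of 38 in liver, where 16.1% and 18.5% of all genes tested did not overlap. SLC25A40 had the smallest p in liver. It had 124.8, 105.6, 112.1 and 104.3 CPM across the livers of ART-Normal 1 to 4, while the controls 2 and 4 had 57.1 and 84.9 CPM. Each ART-Normal liver was above both controls, with a log2 fold change of 0.65 (SE 0.17, adjusted p = 0.459 from edgeR). In muscle SLC25A40 had 42.4, 35.4, 45.4 and 45.7 CPM across ART-Normal 1 to 4, while the controls had 21.2 and 36.9 CPM (0.54, SE 0.22, adjusted p = 0.488), with ART-Normal 2 below Control-AI 4. Control-AI 2 was the lowest library in both tissues. Without it the log2 fold change was 0.41 in liver and 0.19 in muscle. Without Control-AI 4 the log2 fold change was 0.95 and 1.01, with Control-AI 2 as the lone control assumed to vary like the ART-Normal group.

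Line 523756 of SLC25A37 had 232.7, 242.5, 237.5 and 277.5 CPM across ART-Normal livers 1 to 4, while the controls had 156.2 and 213.1 CPM (log2 fold change 0.42, SE 0.16, adjusted p = 0.561 from edgeR). Its groups did not overlap, but those of line 100124521 did (0.07, SE 0.17, adjusted p = 0.892). Without Control-AI 2 line 523756 differed by 0.23, and without Control-AI 4 by 0.65.

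SLC25A51 was the member with the smallest p in the interaction. Its liver levels were 165.8, 138.7, 154.2 and 129.0 CPM across ART-Normal 1 to 4, while the controls had 120.1 and 116.4 CPM (0.31, SE 0.13, adjusted p = 0.589 from edgeR). Its muscle levels were 65.7, 63.1, 64.0 and 56.7 CPM across ART-Normal 1 to 4, while the controls had 71.8 and 70.2 CPM (-0.18, SE 0.13, adjusted p = 0.718). ART-Normal thus lay above both controls in liver and below both in muscle. The interaction, liver minus muscle, was 0.50 (SE 0.17, unadjusted p = 0.0105, adjusted p = 0.733 from edgeR) and lay between 0.46 and 0.54 when each fetus was left out.

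SLC25A13 had 21.5, 16.5, 21.0 and 18.6 CPM across the ART-Normal muscles 1 to 4, while the controls had 12.8 and 15.5 CPM (0.46, SE 0.18, adjusted p = 0.485 from edgeR), and it overlapped in liver (-0.04, SE 0.15). Its interaction was -0.48 (SE 0.22, adjusted p = 0.897 from edgeR), moving to -0.23 when Control-AI 2 was left out and to -0.73 when Control-AI 4 was (adjusted p = 0.989 and 0.439). SLC25A26 had 53.1, 55.2, 53.8 and 50.4 CPM across ART-Normal muscle, while the controls had 41.7 and 47.3 CPM (0.26, SE 0.13, adjusted p = 0.594). LRIG1, which it overlaps, was at 238.8 to 309.0 CPM in ART-Normal muscle, with the controls 2 and 4 at 224.1 and 199.8 CPM, before TMM scaling. The part of LRIG1 in that difference was not tested. Without Control-AI 2 the muscle differences of SLC25A13 and SLC25A26 were 0.32 and 0.17.

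**Figure D4:**
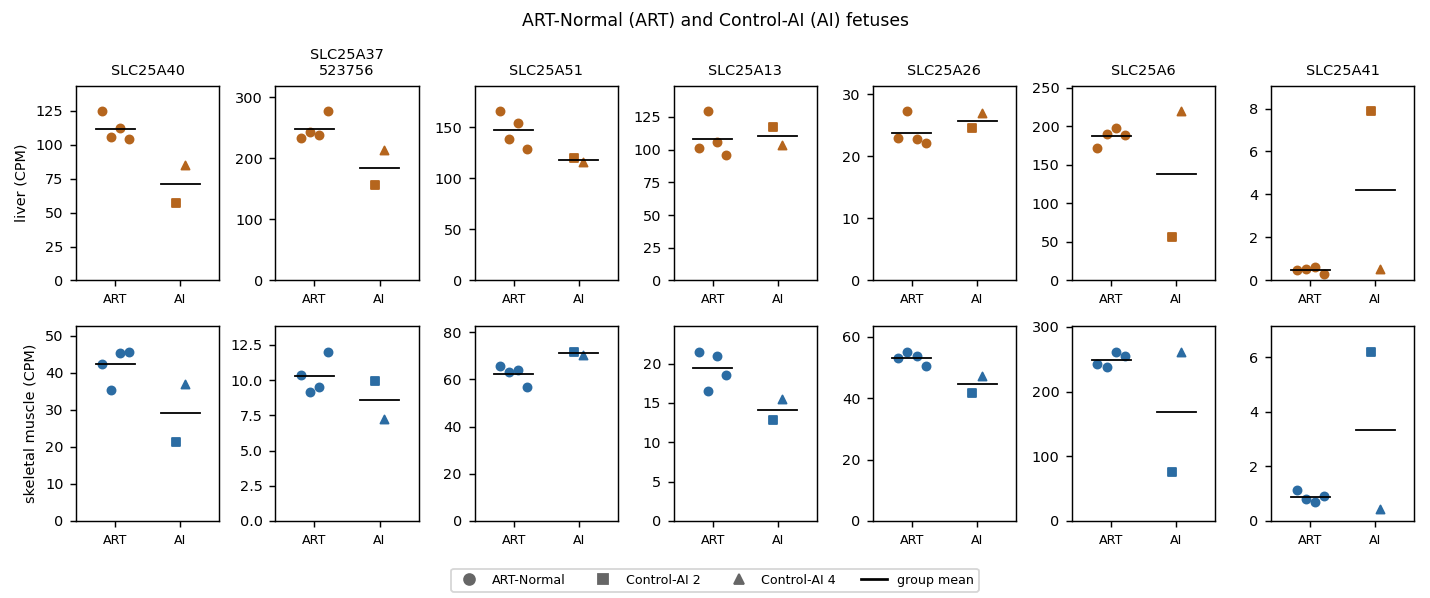
Level in CPM after TMM of 7 SLC25A lines in liver (top) and skeletal muscle (bottom), with ART-Normal fetuses (ART) beside Control-AI fetuses (AI), axes from 0, and black lines at the group means. Control-AI 2, drawn as a square, is low for SLC25A6 and SLC25A40 and high for SLC25A41 in both tissues, while Control-AI 4, a triangle, lies near the ART-Normal fetuses for SLC25A6 and SLC25A41.

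With Control-AI 4 left out, 3 members passed in each tissue: SLC25A40 and SLC25A6 higher in ART-Normal and SLC25A41 lower. In the main fits SLC25A41 was below the minimum level for testing. It entered here only because Control-AI 2, then the lone control, reached that level. A higher level in Control-AI 2 was thus a condition for testing SLC25A41. SLC25A6 then differed by 1.70 (SE 0.19) in liver and 1.75 (SE 0.19) in muscle, and SLC25A41 by -4.04 (SE 0.52) and -2.79 (SE 0.43). These were 3 of 39 members tested in liver and 3 of 40 in muscle. The remaining control was then Control-AI 2, and 830 genes (7.15% of those tested) passed in liver and 1327 (10.9%) in muscle, so the share of members was near that of all genes in liver and below it in muscle. Without Control-AI 2, 0 members passed in either tissue, and 1 and 5 genes did. Both controls together therefore gave no call on any member, and the controls differed between themselves for SLC25A6, SLC25A40 and SLC25A41.

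How often each library was the highest or lowest of its tissue was counted over members with at least 5 CPM in every library of that tissue. Control-AI 2 was the extreme library for 20 of 38 members in liver and 22 of 39 in muscle, 52.6% and 56.4%, against 51.3% and 51.5% of all such genes. ART-Normal 1 was the extreme for 21 of the 38 in liver, 55.3%, against 54.1% of all genes.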

How the data were processed

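Liver and skeletal muscle RNA from 6 fetuses was measured, per the labels as oligo(dT)-enriched, strand-specific libraries read 150 bp from each end. What the authors deposited are unnormalized counts per gene, with positions on ARS-UCD1.2. The submitters' processing notes name FastQC 0.11.7, HISAT2 2.1.0, Cufflinks, SAMtools, featureCounts and edgeR 3.24.3. The strand setting of the counting is not given in the sources used here, so values of genes that overlap on opposite strands are uncertain. Each of the 21048 listed lengths equals the gene span. Of 13 count columns per tissue, 7 matched no sample and were not used (14 in all). The authors' tables of their comparisons (fold changes, p-values and FDR) and the kidney samples were not used.

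Counts were tested with edgeR 4.0.16 (R 4.3.3): TMM normalization, a minimum of 5 CPM throughout at least 1 group, the quasi-likelihood test and Benjamini-Hochberg adjustment over all genes tested, threshold 0.05. All 4 ART-Normal fetuses were kept, although ART-Normal 4 is in the labels only. Standard errors were derived from the fold change and its F statistic. Printed levels are CPM after TMM over 12 libraries, so they can differ slightly from the scaling within 1 tissue. Shares were tested with SciPy 1.17.1. The glutamate carrier share that was planned could not be formed, so p-values were adjusted over 4 shares. The procedures were tested on simulated data. Figures used Matplotlib 3.10.9.

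Both tissues came from the same fetuses, per the fetal identifiers in the labels, so they pair; deviations from the group mean correlated between the tissues across genes at r = 0.21, 0.04, 0.08 and 0.32 in ART-Normal 1 to 4 and 0.36 in the controls.

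The members and lists were chosen with earlier results of these data known. Members given in full were those past the threshold between tissues with a log2 fold change of at least 2 in size and no overlap, members of the groups of related carriers, the 5 highest per kilobase in each tissue, the 3 smallest p in each conception comparison, those below the filter, those with Control-AI 2 at least 2-fold outside the other fetuses in both tissues, those that overlap a gene on the opposite strand, and lone members of a substrate group. The remaining members were given to complete their group, except 1 that is not reported here. The alternatives tried were upper quartile, RLE and library-size scaling, the likelihood ratio test, DESeq2 1.42.0, an open filter and a filter of 10 counts per library, a replicate block, each conception group alone, and leaving out each fetus. Replicates are separate fetuses.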

Additional observations from a re-analysis of the deposited data

Results flagged for a closer look

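Among 82 checks of whether 1 of the 4 ART-Normal libraries of a tissue stood far from the other 3, in 41 members and 2 tissues, 3 did, where chance flags about 1 in 20. All concern ART-Normal 2. SLC25A26, the S-adenosylmethionine carrier, was at 27.3 CPM in its liver, with the other ART-Normal livers at 22.2 to 23.0 CPM. SLC25A33, a pyrimidine nucleotide carrier, was at 9.27 CPM in its muscle, with the others at 7.17 to 7.26 CPM. SLC25A44, a carrier of branched-chain amino acids, was at 20.4 CPM in its muscle, with the others at 23.1 to 23.4 CPM.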

How the results depend on the processing

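The number of members called between liver and muscle stayed between 30 and 38 over all alternatives and between 37 and 38 when each fetus was left out; the 30 came from the Control-AI fetuses alone, 2 against 2 libraries. The members called between ART-Normal and Control-AI numbered 0 to 3 in muscle and 0 to 3 in liver when 1 library was left out, the 3 coming from the fits without Control-AI 4, and 0 under every other alternative; the interaction called 0 members under all alternatives. Without Control-AI 4 SLC25A40 passed in both tissues. For all genes, the muscle comparison called 1 gene, but 120, 106 and 90 with the likelihood ratio test, DESeq2 and the replicate block by label number, and the liver comparison called 0, but 89, 56 and 6. ART-Normal and Control-AI fetuses share only the label numbers 2 and 4. Pairing by fetus as a replicate block gave 38 members between the tissues, with SLC25A6 added, and 0 in the interaction; it changed no other call. Counted per kilobase of listed length, the SLC25A37 share differed by 30.8 and the SLC25A25 share by 16.3 percentage points between liver and muscle. Signs turned only near 0, for SLC25A28 and SLC25A46. SLC25A28 was at -0.050 (upper quartile), -0.15 (library size alone), -0.0051 (no filter) and -0.0022 (Control-AI alone), and between -0.056 and 0.047 when each fetus was left out. SLC25A46 was at -0.038 (upper quartile), -0.13 (library size alone) and -0.11 (Control-AI alone), and between -0.020 and 0.055 when each fetus was left out. The cause was not tested. With 2 controls, small differences between the conception groups were not detectable.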
